A study of Mus musculus with 2 samples.

Results

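The genes described here are 9 transcription factor genes of the macrophage lineage: Spi1, Maf, Runx1, Runx3, Ets2, Mitf, Tfec, Bhlhe40 and Bhlhe41. They were taken by symbol from a deposited table of 54532 genes, in which each symbol matched 1 identifier. The table reports RNA sequencing of RAW264.7, a mouse macrophage-like tumour line, after 3 h with lipopolysaccharide (LPS, a bacterial outer-membrane component sensed by Toll-like receptor 4) at 100 ng/ml. The groups are wild type and knockout for RNF138, a ubiquitin ligase, and both received LPS. Each group holds 1 library, so no difference below has a replicate check, and intervals, at 95%, cover counting error only. The libraries held 15573989 and 19032311 counts. They were amplified by PCR with no molecular identifiers described, so reads are not independent molecules. The sources used here do not say whether the knockout line is a clone or a pool, and no unstimulated culture was analysed here.

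Macrophage identity is set by a small group of DNA-binding proteins that act together on shared enhancers. PU.1, the ETS-domain protein encoded by Spi1, opens chromatin at most macrophage enhancers, and RUNX1 acts upstream of it in blood development. The factors of the MiT family (MITF, TFEC, TFEB and TFE3) control lysosomal and osteoclast genes, BHLHE40 and BHLHE41 are E-box repressors that also act in the circadian clock, and MAF restrains self-renewal of tissue macrophages. In bulk RNA, fewer cells expressing a gene and less RNA per cell cannot be told apart.

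The targeted gene goes against the labels. Rnf138 had 602 counts in the wild-type library and 4764 in the knockout library by label. In CPM, which divides counts by the library size after scaling and multiplies by 1000000, these are 38.4 and 252, a ratio of 6.55 (interval 6.01 to 7.14). Exchanged labels and Rnf138 RNA still made by an edited gene cannot be told apart in these counts. If the labels were exchanged, every direction below would be reversed. Directions therefore rest on the labels alone, and the libraries are called WT-labelled and KO-labelled. Where a pair of values is given, the WT-labelled library comes first. Macrophage markers were present in both: of 10, 9 were measured, meaning a mean count of at least 10, and their summed level was 2257 and 3345 CPM. Adgre1 (F4/80) had 542 and 183 counts, Lyz2 (lysozyme) 4351 and 13391, Aif1 17 and 62, and Mertk 0 and 1. Markers of 8 other cell types were near 0, with summed levels from 0 to 1.72 CPM in the WT-labelled library and from 0 to 2.96 CPM in the other. The highest was the T cell list, where the kinase gene Lck gave 22 and 55 of the 27 and 56 counts, and Cd3e, Cd3g, Cd4 and Cd8a had none. The melanocyte genes Tyr, Tyrp1, Dct and Mlana, which MITF drives in pigment cells, had 0 counts in both libraries, and Pmel had 6 and 8.

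Of the 9 factor genes, 5 were lower in the KO-labelled library by at least 2-fold with an interval of the ratio clear of 1: Runx1, Runx3, Tfec, Bhlhe40 and Bhlhe41. None was higher by that rule. Spi1, Ets2 and Mitf were measured and did not pass it, with ratios between 1.34 and 1.57 in favour of the KO-labelled library, and Maf had no counts. Over all 12668 measured genes, 3.62% were lower by the same rule and 6.54% were higher. Among the 787 measured genes to which the deposited table gives a transcription factor family, 5.59% were lower and 5.97% higher. Runx3 and Tfec reached the minimum mean count through the WT-labelled library alone and so had to differ, which leaves Runx1, Bhlhe40 and Bhlhe41 as lower genes with at least 10 counts in each library. In all, 10.2% of measured genes passed the rule in either direction, and this share varied with the mean count. From 10 to 100 counts 9.12% were lower and 15.4% higher, from 100 to 1000 counts 2.44% and 4.61%, and above that 0.76% and 1.99%. Runx3 and Tfec belong to the first band, Bhlhe41 to the second, and Runx1 and Bhlhe40 to the third. These shares are set beside the count as a description, since the 9 genes were not chosen blind to these data.

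**Figure D1:**
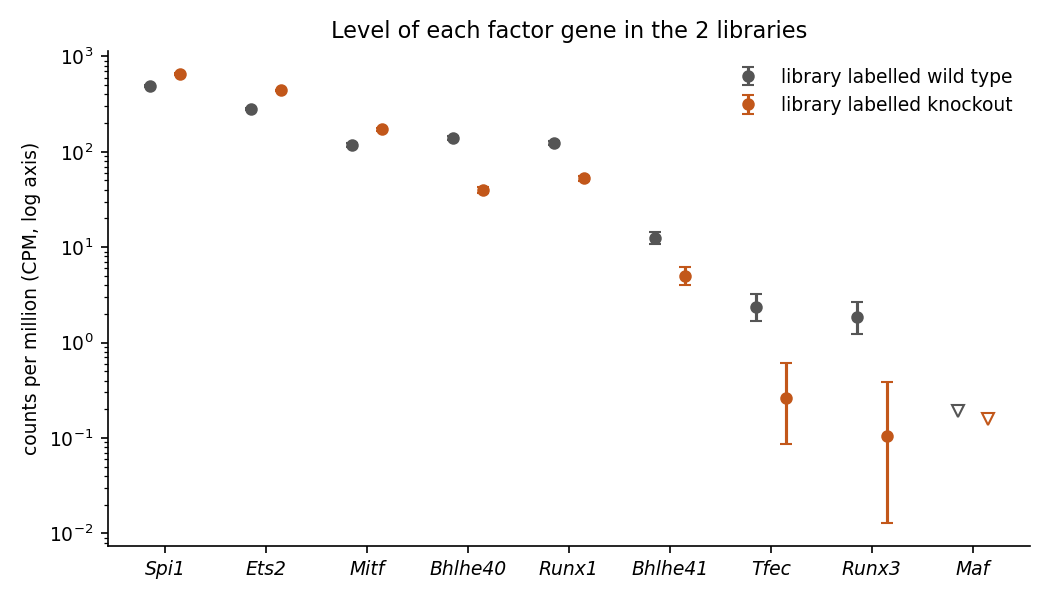
Level of each factor gene in CPM (log axis) in the WT-labelled library (grey) and the KO-labelled library (orange), 1 library each. Bars are exact Poisson intervals at 95%, and open triangles for Maf mark the level that 3 counts would give, 0.192 and 0.158 CPM, since it had 0 counts. Spi1, Ets2 and Mitf lie higher in the KO-labelled library, and the next 5 genes lie lower in it.

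The ETS-domain genes among the 9 were both more abundant in the KO-labelled library, by less than 2-fold. Spi1 (ENSMUSG00000002111, GRCm38 chromosome 2, 91082390 to 91115756, plus strand) had 7644 counts (488 CPM, 477 to 499) in the WT-labelled library and 12371 counts (654 CPM, 642 to 665) in the KO-labelled library. The intervals do not overlap, and the ratio was 1.34 (1.30 to 1.38). Ets2, which encodes an ETS factor phosphorylated by MAP kinases downstream of the CSF1 receptor, had 4377 counts (280 CPM, 271 to 288) and 8305 counts (439 CPM, 429 to 448). Its ratio was 1.57 (1.51 to 1.63), the highest of the 9 genes. Ets2 lies at GRCm38 chromosome 16, 95702075 to 95721051, plus strand (ENSMUSG00000022895). The closest relatives of both were nearly silent: Spib, the B cell relative of Spi1, had 6 and 14 counts, Spic, the factor of red pulp macrophages, had none, and Ets1 had 0 and 5.

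Of 22 further family members, 15 were measured, of which 3 were lower in the KO-labelled library, none was higher and 12 did not pass the rule. For this and the later lists, the shares over all measured genes were 3.62% lower and 6.54% higher. Their median log2 ratio, KO-labelled over WT-labelled as in all log2 ratios here, was -0.34. The 3 lower genes encode the ETS activators ETV1, ETV4 and ETV5. Etv1 had 347 and 102 counts, 4.11-fold lower in the KO-labelled library (3.29 to 5.18). Etv4 had 28 and 8 counts, 4.23-fold lower (1.88 to 10.7), and reached the minimum mean count through the WT-labelled library alone. Etv5 had 231 and 133, 2.10-fold lower (1.69 to 2.62).

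Genes listed as PU.1 targets in myeloid cells were all measured, 28 of 28, with a median log2 ratio of 0.37 against 0.02 for all genes. Of these, 3 were higher in the KO-labelled library, 2 were lower and 23 did not pass the rule. Fcgr2b, the inhibitory Fc receptor gene, had 514 and 3079 counts, 4.96-fold higher (4.51 to 5.45). The scavenger receptor gene Msr1 had 18 and 116 counts, 5.33-fold higher (3.23 to 9.31), and Lyz2 was 2.55-fold higher (2.46 to 2.64). Adgre1 was 3.58-fold lower (3.02 to 4.26), and Csf3r, the receptor gene for granulocyte colony-stimulating factor, had 1662 and 944 counts, 2.13-fold lower (1.96 to 2.31). Csf1r, a classical target of both PU.1 and RUNX1, stood at 539 and 553 CPM, a ratio of 1.03 (0.997 to 1.06). The lists share genes: all the macrophage markers except Mertk and Aif1 are also in this PU.1 target list. Csf1r and Itgam are also counted among the RUNX targets. So is Cebpa, which is also in the list of other macrophage factors.

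**Figure D2:**
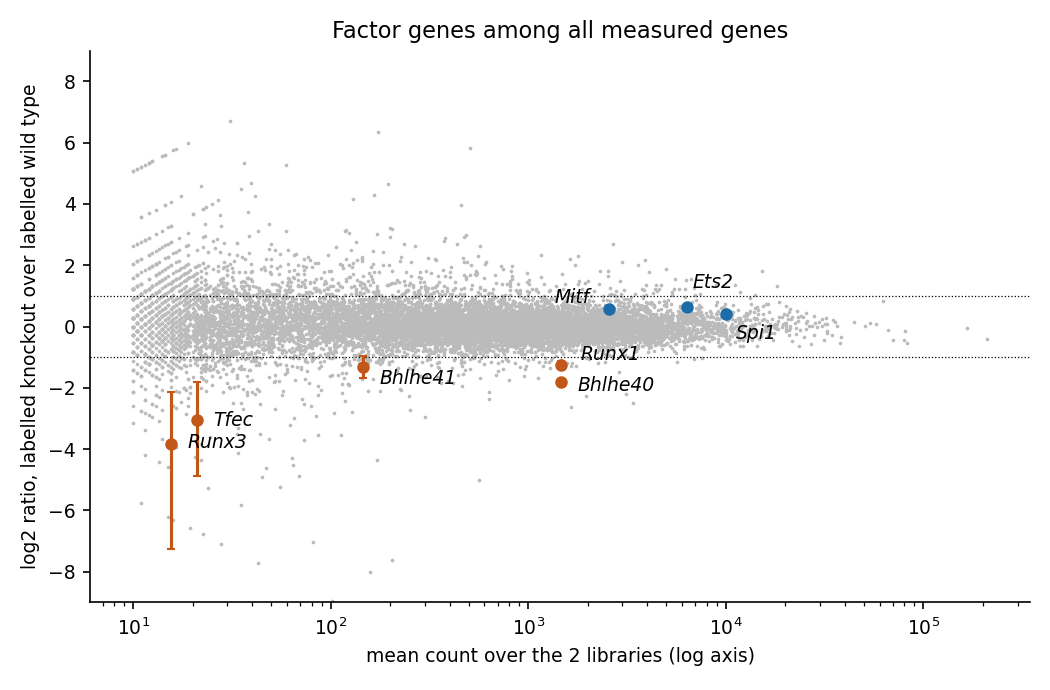
Log2 ratio, KO-labelled over WT-labelled, against the mean count of the 2 libraries (log axis). Grey points are the 12668 measured genes, orange points the 5 factor genes past the rule, blue points the 3 that are not, bars exact intervals at 95%, and dotted lines 2-fold. Runx3 and Tfec sit where the grey cloud is widest, while Runx1 and Bhlhe40 sit below a narrow part of it.

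Both RUNX genes among the 9 were lower in the KO-labelled library. Runx1 (ENSMUSG00000022952, GRCm38 chromosome 16, 92601466 to 92826149, minus strand) had 1945 counts (124 CPM, 119 to 130) in the WT-labelled library and 997 counts (52.7 CPM, 49.5 to 56.0) in the KO-labelled library. The latter lies 2.36-fold below the former (2.18 to 2.55), with intervals far apart. Runx3, known for its part in dendritic cells and cytotoxic T cells, had 29 counts (1.85 CPM, 1.24 to 2.66) and 2 counts (0.106 CPM, 0.0128 to 0.382). That is a ratio of 17.5 in favour of the WT-labelled library, with a wide interval of 4.43 to 152 because it rests on 2 counts. Runx3 lies at GRCm38 chromosome 4, 135120652 to 135177990, plus strand (ENSMUSG00000070691). Runx2, the bone-forming relative, had 17 and 17 counts, a ratio of 0.827 (0.397 to 1.72). Summed over the 3 genes, the deposited FPKM, which scales counts by gene length and library size, was 11.3 and 4.66, nearly all of it Runx1.

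Each RUNX gene has a distal and a proximal promoter, and counts over a whole gene do not separate their transcripts. The RefSeq promoter windows (250 bases before to 50 after each transcript start, GRCm38.p6) held 2 windows for Runx1 and 2 for Runx3. The distal window of each contained a pair of matches to the RUNX motif, TGTGGTT on either strand, with starts 8 bases apart, and so did the only window of Runx2. The matches begin 27 and 35 bases after the start in Runx1, 22 and 30 after it in Runx2, and 135 and 127 before it in Runx3. They are printed to show that the 3 genes share the paired element, with 30 bases each, 5′ to 3′ on the gene's strand and the motif matches in capitals.
Runx1, chr16:92826025-92826054, minus strand: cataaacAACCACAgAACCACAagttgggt
Runx2, chr17:44814583-44814612, minus strand: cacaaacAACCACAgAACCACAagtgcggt
Runx3, chr4:135120503-135120532, plus strand: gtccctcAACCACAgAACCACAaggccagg
The paired stretch of 15 bases, AACCACAGAACCACA, is identical in the 3 genes. Of 32817 promoter windows of all genes, 5 (0.0152%) held such a pair: these 3, that of the non-coding gene Gm16225, which overlaps the Runx3 window, and that of Olfr24. The spacing was chosen after the matches in Runx1 and Runx3 were seen. A RUNX motif of any number was in 5.3% of windows and in 4 of the 10 windows of the factor genes.

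Among the partners of RUNX proteins, Cbfb, which encodes the beta subunit that all RUNX proteins need to bind DNA, had 5233 and 6009 counts, 1.05-fold lower in the KO-labelled library (1.01 to 1.09). Of 9 partner genes, 7 were measured, none was higher, and the ETO-family corepressor gene Cbfa2t3 alone passed the rule, with 28 and 16 counts, 2.12-fold lower in the KO-labelled library (1.11 to 4.19). The median log2 ratio of the list was -0.64. Of 8 myeloid genes regulated by RUNX factors, 6 were measured, of which 3 were higher in the KO-labelled library, none was lower, and the median was 1.17. Over all measured genes 6.54% were higher, and 15.4% of those with a mean count from 10 to 100, where Csf2, below, falls. Itgal, the gene of the LFA-1 integrin chain, had 492 and 2746 counts, 4.62-fold higher (4.19 to 5.09). Itgax (CD11c) had 36 and 203 counts, 4.67-fold higher (3.26 to 6.85), and Csf2, the gene of granulocyte-macrophage colony-stimulating factor, had 27 and 96, 2.94-fold higher (1.90 to 4.69).

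Within the MiT family the genes differed in opposite directions. Mitf (ENSMUSG00000035158, GRCm38 chromosome 6, 97807052 to 98021349, plus strand) had 1837 counts (117 CPM, 112 to 123) in the WT-labelled library and 3273 counts (173 CPM, 167 to 179) in the KO-labelled library. It was the third gene more abundant in the latter, with a ratio of 1.47 (1.39 to 1.56). Tfec, which in mice is expressed mainly in macrophages and is induced there by interleukin-4, had 37 counts (2.36 CPM, 1.66 to 3.26) and 5 counts (0.264 CPM, 0.0858 to 0.616). It was 8.94-fold lower in the KO-labelled library (3.51 to 29.2). Tfec lies at GRCm38 chromosome 6, 16833373 to 16898441, minus strand (ENSMUSG00000029553). Of the relatives outside the 9, Tfeb, a regulator of lysosome formation, had 268 and 106 counts and was 3.06-fold lower (2.43 to 3.86), while Tfe3 had 1860 and 2368 counts, a ratio of 1.05 (0.991 to 1.12). Mitf exceeded Tfeb per gene length by 6.27-fold (5.51 to 7.16) in the WT-labelled library and by 28.3-fold (23.3 to 34.6) in the KO-labelled library. Against Tfec the corresponding ratios were 44.8 (32.4 to 63.9) and 591 (253 to 1821). Summed FPKM of the 4 genes was 36.6 and 43.9.

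Promoter windows of Tfec and Mitf are shown because these paralogues went in opposite directions. Both held a RUNX match, and each stretch below stops where annotated exons begin. In the Tfec stretch the capitals mark the RUNX motif (as AACCACA, its reverse complement) and the PU.1 motif AGGAAGT, 222 and 71 bases before the start. In the Mitf stretch, from the first of 3 windows, they mark the MAF motif TGCTGAC and the RUNX motif, 222 and 82 bases before the start. The only match in the second Mitf window was to the MAF motif, 236 bases before its start, and the third held no match. Counts over the whole gene do not separate transcripts from the 3 starts.
Tfec, chr6:16898442-16898691, minus strand: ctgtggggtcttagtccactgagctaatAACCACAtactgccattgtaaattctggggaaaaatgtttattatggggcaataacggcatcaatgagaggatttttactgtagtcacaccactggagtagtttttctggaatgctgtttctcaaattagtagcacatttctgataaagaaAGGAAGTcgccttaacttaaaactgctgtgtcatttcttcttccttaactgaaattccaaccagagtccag
Mitf, chr6:97806808-97807051, plus strand: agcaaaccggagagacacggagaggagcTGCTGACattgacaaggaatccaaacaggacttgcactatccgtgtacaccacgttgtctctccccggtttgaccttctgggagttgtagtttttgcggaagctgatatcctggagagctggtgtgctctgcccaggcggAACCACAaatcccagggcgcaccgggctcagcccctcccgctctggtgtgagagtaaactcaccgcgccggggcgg
Over all windows, the PU.1 motif was in 9.4% and the MAF motif in 4.7%. The 9 motifs searched on both strands were these 3, the ETS motif CCGGAAG, the E-box CACGTG, the M-box TCATGTG, the interferon-response motif GAAANNGAA, the kappaB motif and the AP-1 motif TGANTCA, of which the MAF and AP-1 motifs can overlap. They had at least 1 match in 6 of the 10 windows of factor genes and in 46.6% of all windows. The Tfec window also held a kappaB match 1 base before the start, where 5.6% of windows hold this motif.

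Of 14 osteoclast genes regulated by MITF, TFE3 and PU.1 or acting downstream of the receptor RANK, 11 were measured, 2 were higher in the KO-labelled library, 1 was lower and 8 did not pass the rule, with a median of -0.23. Ocstamp, a gene of cell fusion, had 93 and 530 counts, 4.71-fold higher (3.78 to 5.94), and the gelatinase gene Mmp9 rested on 2 and 43 counts, with a ratio of 17.8 (4.63 to 152), so that it was measured through the KO-labelled library alone. Nfatc1, the principal factor gene of osteoclast formation, had 4009 and 1719 counts, 2.82-fold lower (2.66 to 2.98). Of 24 lysosomal and autophagy genes with MiT sites, all were measured and 23 did not pass the rule, with a median of -0.17. The remaining gene, Uvrag, an autophagy and endosome gene, had 1277 and 729 counts, 2.12-fold lower (1.93 to 2.32). Among genes that hold MiT factors in the cytoplasm when nutrients are plentiful, together with Tfeb and Tfe3, 7 of 8 were measured, 2 were lower and none was higher, with a median of -0.42. Fnip2, which encodes a partner of folliculin, had 3166 and 1701 counts and was 2.25-fold lower (2.12 to 2.39), the other being Tfeb.

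**Figure D3:**
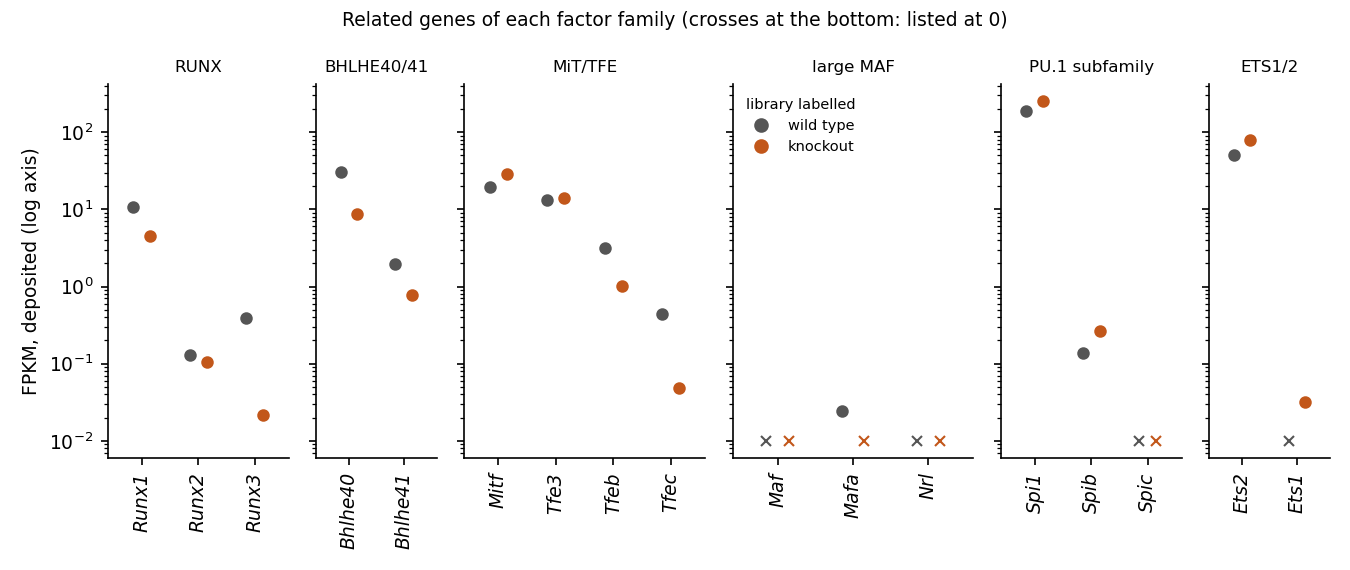
Deposited FPKM (log axis) of the 9 factor genes and related genes, by family, in the WT-labelled library (grey) and the KO-labelled library (orange), 1 library each and without error bars. Crosses at the lower edge mark genes listed at 0. Runx1, Runx3, both BHLHE genes, Tfeb and Tfec lie lower in the KO-labelled library, Mitf lies higher, and Spi1 and Ets2 stand far above their relatives.

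Both BHLHE repressor genes were lower in the KO-labelled library. Bhlhe40 (ENSMUSG00000030103, GRCm38 chromosome 6, 108660629 to 108666925, plus strand), whose product represses Il10 in mouse lymphoid and myeloid cells, had 2184 counts (139 CPM, 134 to 145) in the WT-labelled library and 748 counts (39.5 CPM, 36.7 to 42.5) in the KO-labelled library. The difference was 3.53-fold (3.25 to 3.84), and 142 of the 12668 measured genes had a lower log2 ratio. Bhlhe41 (ENSMUSG00000030256, GRCm38 chromosome 6, 145858243 to 145865558, minus strand), which with Bhlhe40 sustains alveolar macrophages in mice, had 196 counts (12.5 CPM, 10.8 to 14.4) and 95 counts (5.02 CPM, 4.06 to 6.14). It was 2.49-fold lower (1.94 to 3.22), with intervals that do not overlap. Per gene length Bhlhe40 exceeded Bhlhe41 by 15.9-fold (13.7 to 18.5) and by 11.2-fold (9.07 to 14.1), so Bhlhe40 was the more abundant of the pair in both libraries. The antisense gene Gm43909, with 11 and 3 counts, covers 19.0% of the Bhlhe41 exon bases on the opposite strand, and reads from there cannot be assigned without a stated counting strand.

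The Bhlhe41 window is shown because it holds the E-box CACGTG, the sequence that BHLHE40 and BHLHE41 bind. The match, in capitals, lies 153 bases before the RefSeq start, in the part of the window before the annotated exon, and 7.1% of all windows hold this motif. The distal Runx1 window also held it, 71 bases before the start.
Bhlhe41, chr6:145865559-145865670, minus strand: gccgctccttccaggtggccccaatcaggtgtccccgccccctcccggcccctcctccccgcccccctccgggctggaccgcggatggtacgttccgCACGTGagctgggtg

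Of 15 clock genes, a class that includes E-box targets of these repressors, 12 were measured and 11 did not pass the rule. None was higher, and the median log2 ratio of the list was -0.22. Nr1d1, the gene of the clock repressor REV-ERB alpha, had 175 and 99 counts and was 2.14-fold lower in the KO-labelled library (1.66 to 2.76).

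Maf was not detected. The gene (ENSMUSG00000055435, GRCm38 chromosome 8, 115682942 to 115707794, minus strand) had 0 counts in both libraries. Its exact interval reaches 0.236 CPM in the WT-labelled library and 0.195 CPM in the KO-labelled library. A level of 3 counts would be 0.192 and 0.158 CPM. No ratio can be given. Of its relatives, Mafa had 1 and 0 counts, and Nrl had none. Small MAF genes, whose products lack a transactivation domain, were abundant: Mafg had 3162 and 3533 counts, a ratio of 0.924 (0.881 to 0.970). Of 10 MAF relatives and their CNC partners, 6 were measured and none passed the rule, with a median of -0.21. Nfe2l1, a CNC factor of proteasome genes, had 2685 and 4841 counts, a ratio of 1.49 (1.42 to 1.56). Of 14 genes linked to MAF in tissue macrophages, 2 were measured and 4 had no counts in either library, Cd163 and Vsig4 among them. For Selenop, which encodes a selenium transporter of plasma, 38 and 140 counts were read, 3.05-fold more in the KO-labelled library (2.12 to 4.49), and the scavenger receptor gene Stab1 had 283 and 509, a ratio of 1.49 (1.28 to 1.73). Il10, which MAF activates, had 3 and 0 counts. Il12b, a gene that Il10 signalling restrains, had 1 and 15. Both genes were below the minimum mean count, and a link between them was not tested.

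Per gene length, the order of the 9 genes differed between the libraries at 1 step. In FPKM, a level, the WT-labelled library had Spi1 at 188 (184 to 193), then Ets2 at 50.3, Bhlhe40 at 30.8, Mitf at 19.7, Runx1 at 10.7, Bhlhe41 at 1.94, Tfec at 0.440 and Runx3 at 0.385. In the KO-labelled library Spi1 stood at 251 (246 to 255), Ets2 at 78.5, Mitf at 28.9, Bhlhe40 at 8.69, Runx1 at 4.53, Bhlhe41 at 0.772, Tfec at 0.0488 and Runx3 at 0.0218. Mitf and Bhlhe40 exchanged places. In the WT-labelled library Bhlhe40 was 1.57-fold above Mitf (1.47 to 1.67), and in the KO-labelled library Mitf was 3.32-fold above Bhlhe40 (3.07 to 3.60). Neighbours in the order differed beyond counting error except Tfec and Runx3, whose level ratio was 1.14 (0.683 to 1.92) and 2.24 (0.366 to 23.5). Maf was listed at 0 in both. Spi1 exceeded Spib by 1356-fold (623 to 3696) and 940-fold (560 to 1721).

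Mitf, Tfec, Bhlhe40 and Bhlhe41 all lie on chromosome 6, where the median log2 ratio of 609 other measured genes was 0.02. Runx1 and Ets2 lie 2.88 Mb apart on chromosome 16 and differed in direction, with a median of -0.01 over 386 other genes of that chromosome. Within 1 Mb of Runx1 none of 17 measured genes passed the rule, and the same held for 8 genes near Bhlhe40, 16 near Bhlhe41, 6 near Tfec, 6 near Mitf and 5 near Ets2. Near Runx3, 3 of 37 were lower and none was higher, and near Spi1, 2 of 31 were lower and 2 higher. Near Maf, 1 of 2 was higher. Medians within 1 Mb of the 8 measured factor genes ran from -0.27 to 0.01. Exons of Spi1, Runx3, Ets2, Mitf and Tfec overlap no other annotated exon, and the overlap was 0.881% for Runx1, with Gm26626 (6 and 15 counts), and 2.51% for Bhlhe40, with 0610040F04Rik (0 counts in both).

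**Figure D4:**
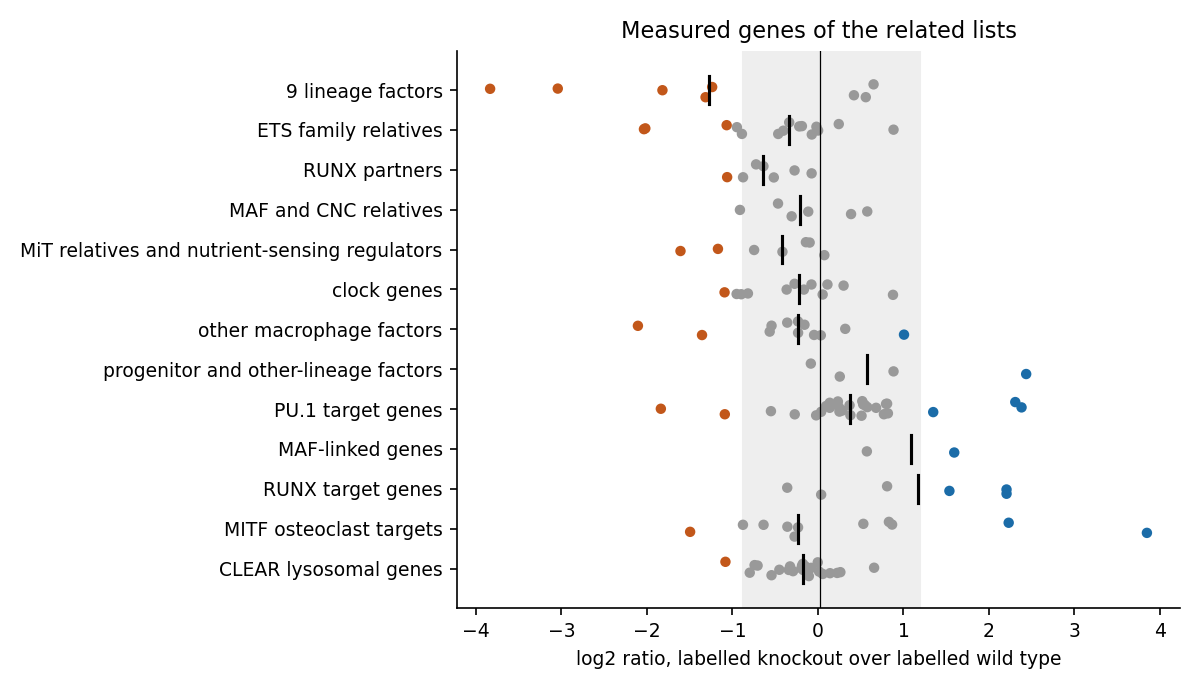
Log2 ratio, KO-labelled over WT-labelled, of the measured genes in the 9 lineage factors and 12 related lists. Orange points are lower and blue points higher by the 2-fold rule, grey points are not past it, black bars are list medians, that of the factors including Runx3 and Tfec, the vertical line is the median of all 12668 measured genes and the shaded band their central 90%, from -0.87 to 1.19. The 5 lower factor genes lie left of the band, as do genes of other lists. Right of it lie 3 genes regulated by RUNX factors and genes of the PU.1 target, MITF osteoclast, MAF-linked and progenitor lists.

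Log2 fold changes of the factor genes in the authors' deposited table were 0.42 for Spi1, 0.65 for Ets2, 0.56 for Mitf, -1.24 for Runx1, -1.82 for Bhlhe40, -1.32 for Bhlhe41, -3.13 for Tfec and -4.04 for Runx3. The log2 ratios computed here, with 0.5 counts added to each library, were -3.83 for Runx3 and -3.04 for Tfec.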

How the data were processed

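RNA was sequenced from 2 cultures of RAW264.7 cells, 1 library per group, with groups taken from the genotype labels. The authors deposited raw read counts per gene. The submitters' processing notes name featureCounts 1.5.0-p3, HISAT2 2.0.5, CASAVA 1.8 and the build mm10 (GRCm38), without roles. For the counting strand and the annotation release, the sources used here give nothing. The deposited FPKM are counts per gene length and library size, per the file headers and values. The deposited signal columns are counts scaled between libraries, within 1% of a constant multiple in 100% of measured genes with counts in both libraries. In 99.5% of these genes, the authors' log2 fold change lay within 0.05 of the log2 ratio of that signal. The authors' p-values were not used, since the spread behind them is not given.

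Counts were scaled with TMM factors from edgeR 4.0.16 (R 4.3.3), 1.01 and 0.995, and no test was run. CPM have exact Poisson intervals and ratios exact Clopper-Pearson intervals conditional on the summed count. Measured genes had a mean count of 10 or more. The size rule needs a measured gene, a 2-fold ratio and an interval excluding 1. Log2 ratios have 0.5 counts added, and Maf, with 0 counts, is drawn at the level of 3 counts. In the lists, up to 4 genes past the rule with the largest ratio were named, or the 2 most abundant where none passed. Other genes were named after their values were seen. A relative of 1 of the factors is not reported here. The lists and the 9 genes were chosen with earlier results of these data known. Exon overlap used GENCODE M21, on the same build, and promoter windows came from RefSeq (GRCm38.p6), with 6 of the 9 genes matched. No promoter window was used for Spi1, Maf and Bhlhe40, and no protein sequence was used here. Alternatives were upper-quartile factors, library totals, DESeq2 1.42.0 size factors, other count minimums and fold limits, stricter intervals, protein-coding genes alone, FPKM plus 1 and 5 counts added. The procedure was tested on simulated data with counting error only, in which the changed genes differed 4-fold. Smaller changes and spread between cultures were not simulated.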

Additional observations from a re-analysis of the deposited data

How the results depend on the processing

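Runx1, Runx3, Tfec, Bhlhe40 and Bhlhe41 were the 5 lower factor genes under DESeq2 size factors, total counts, upper-quartile factors and no count filter, which shifted log2 ratios by at most -0.02. With a minimum mean count of 100, 3 of them were counted, since Runx3 and Tfec are below it, and at a 4-fold limit 2 were, Runx3 and Tfec. With the whole interval beyond 2-fold, Bhlhe41 dropped out and 4 were left. At a 1.5-fold limit Ets2 joined as 1 higher gene. The 12 related lists hold 177 different genes, measured or not, without the factor genes. Of these, 11 were higher and 13 lower. The counts for the lists became 20 and 27 at 1.5-fold, and 7 and 3 at 4-fold. With the minimum of 100 there were 5 higher, and with the stricter interval 7 lower. How many of the 177 were measured is not given here, and fewer reach the minimum of 100. The list counts therefore cannot be set against the shares over all measured genes. Over all genes, 828 were higher and 458 lower. These became 1634 and 1021 at 1.5-fold, 218 and 128 at 4-fold, 327 and 161 with the minimum of 100, and 353 and 185 with the stricter interval. With no count filter there were 1114 and 675, and among protein-coding genes alone 605 and 346, each out of a different number of genes. On log2 of FPKM plus 1, which shrinks weak genes, the differences were -1.09 for Runx1, -0.44 for Runx3, -0.46 for Tfec and -0.73 for Bhlhe41. With 5 counts added in place of 0.5, the log2 ratio was -2.55 for Runx3 and -2.34 for Tfec. Depth limits Runx3, Tfec and Maf, which rest on 31, 42 and 0 counts in all. No paired analysis was possible because each group has 1 library, and for the same reason no library could be left out.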

Other observations

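Of 15 other transcription factors of macrophage differentiation, 12 were measured, of which 1 was higher in the KO-labelled library, 2 were lower and 9 did not pass the 2-fold rule. That is 3 of 12 past it in either direction, against 10.2% of all measured genes. The list's median log2 ratio was -0.23. Nr1h3, the gene of the oxysterol receptor LXR alpha, rested on 31 and 76 counts, with a ratio of 2.03 (1.32 to 3.19). The orphan nuclear receptor gene Nr4a1 had 279 and 78 counts, 4.32-fold lower (3.35 to 5.63). Id2, an inhibitor of helix-loop-helix factors, had 297 and 140, 2.56-fold lower (2.09 to 3.16). Irf8, whose product partners PU.1, had 1751 and 2641 counts, a ratio of 1.25 (1.17 to 1.33), and Cebpb had 3038 and 3559, a ratio of 0.969 (0.923 to 1.02), both named after their values were seen. Of 13 factors of progenitors and other blood lineages, 4 were measured and 5 had no counts in either library. Gata3, with 6 and 14 counts, and Gfi1 were measured through the KO-labelled library alone. Gfi1, a repressor in granulocyte development, rested on 6 and 42 counts, with a ratio of 5.79 (2.45 to 16.7).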
